A study of Mus musculus with 3 samples.

Results

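Genes for the hydrolytic enzymes, membrane proteins and proton pump of the lysosome were read on 3 arrays of mouse spleen dendritic cells (DCs). The set was defined by gene symbol and was chosen with earlier results of these data known. From 45 listed symbols, with the cathepsins left out, a gene counted where a probe set on the array names that symbol alone. This gave 44 of 19938 genes. Atp6v0c, the proton-binding ring subunit of the pump, was not matched this way and is not analysed here. Of the 44, 43 were above background on at least 1 array; Atp6v0d2 read 5.10 on all 3 and was below it. Background is the level under which 95% of 1194 olfactory and vomeronasal receptor genes lay on the same array.

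Each group is 1 Affymetrix Mouse Gene 1.0 ST array of CD11c(hi) CD11b+ spleen cells, sorted after magnetic depletion of lymphoid and erythroid cells from the combined spleens of 2 to 3 mice. The control Esam(hi) array holds Esam(hi) GFP(lo) cells and the control Esam(lo) array Esam(lo) GFP(hi) cells, both from Cx3cr1-GFP+ RBPJflox/flox littermates without Cre. The third array, labelled RBPJnull Esam(lo), holds Esam(lo) GFP(hi) cells of Cx3cr1-GFP+ RBPJflox/flox CD11c-Cre+ mice, whose Cre is driven by the CD11c promoter. All mice thus carried the GFP reporter in Cx3cr1 and the floxed Rbpj alleles; no source used here gives their ages. With 1 array a group there is no replicate error and no test, and having only 3 arrays limits how precise any value is. Differences below therefore compare arrays, and a gene is called higher or lower where it was at least 2-fold apart with the brighter array above background.

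Lysosomes digest proteins, glycans, lipids and sulfated polymers taken up by the cell, using hydrolases that need an acid lumen. The acid is made by the vacuolar proton pump, in which a cytosolic V1 sector splits ATP and a membrane-embedded V0 sector carries protons. In DCs the balance between destroying an antigen and keeping peptides for presentation depends on how acidic and how rich in hydrolases these compartments are, and the factor TFEB activates many lysosomal genes through E-box sites in their promoters.

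The labels were first set beside marker genes. Esam had log2 values of 7.79 for control Esam(hi), 6.57 for control Esam(lo) and 6.12 for the labelled RBPJnull array. The latter values are below background, and Esam(hi) was higher than Esam(lo) by at least 2.04-fold. Cx3cr1, which carries the reporter, read 8.32, 9.58 and 9.58 in the same order, the order of arrays used throughout. Itgax (CD11c) read 12.36, 12.50 and 12.44, and Itgam (CD11b) 9.50, 10.57 and 10.79. Rbpj was not lower on the array labelled RBPJnull, at 9.85, 9.85 and 10.04 for one probe set and 6.11, 5.63 and 5.63, below background, for the other. These probe sets are not known to lie in the deleted part and so do not check the label; every direction drawn from that array rests on it.

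The comparison of the control subsets asks how Esam(hi) and Esam(lo) CD11b+ DCs differ. Lysosomal genes had lower values in Esam(hi) cells: 18 of the 43 above background were at least 2-fold lower (41.9%) and 0 were higher, where 11.6% of all 9196 genes above background were lower and 0.816% higher. For each of the 43, the share called lower was also taken among the genes nearest to it in mean level. Those shares had a median of 16.2% and ran from 2% to 20.6%, so 11.6% is a low comparison for most of the 43. The 18 spanned most roles, with folds from 2.01 to 4.21. They comprised the membrane proteins Lamp1 and Scarb2, the lipid handlers Lipa and Npc2, the enzymes or helpers Gusb, Hexa, Fuca1, Arsb, Asah1, Psap and Ppt1, and 7 proton pump genes. The Esam(hi) value was the lowest of the 3 in 41 of the 44 genes, and the remaining 3, Neu1, Tfeb and Atp6v0d2, had 1 value on all arrays. Most genes shared this direction: 6546 of all 9196 above background read lower on the Esam(hi) than on the control Esam(lo) array. RNA was measured in bulk, so fewer cells of a type and less RNA per cell cannot be told apart.

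**Figure D1:**
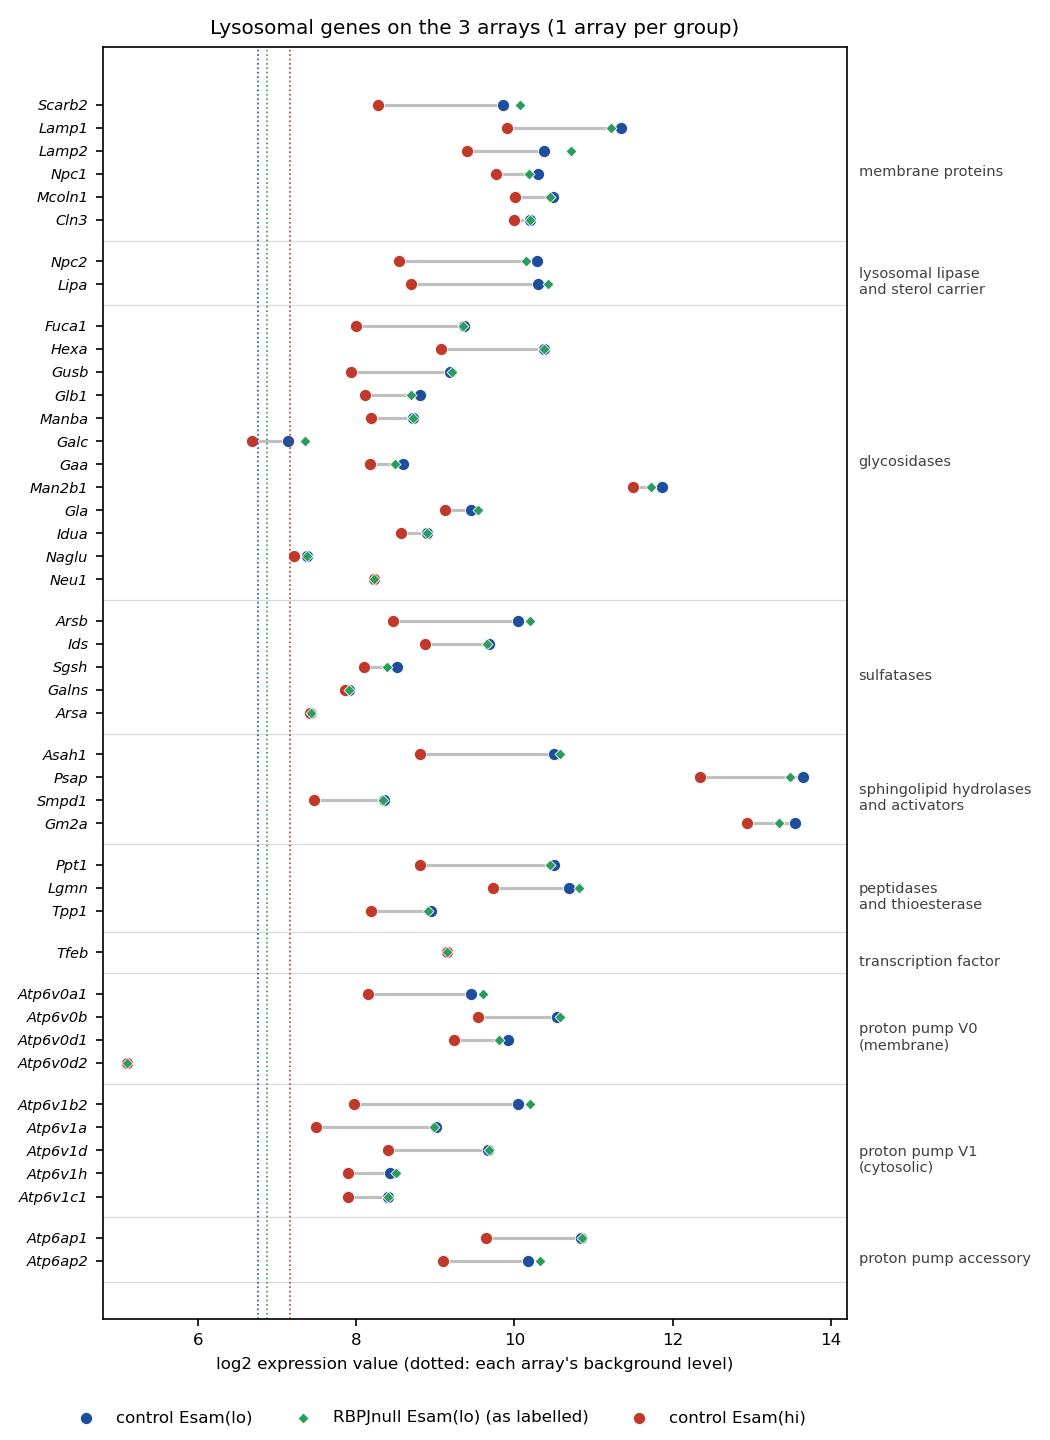
Deposited log2 expression value (x axis) for each of the 44 lysosomal genes (y axis, grouped by role) with 1 point for each array (red Esam(hi), blue control Esam(lo), green labelled RBPJnull); grey lines join the control arrays and dotted lines are the arrays' background levels of 7.17, 6.76 and 6.87. The Esam(hi) point lies leftmost in 41 of 44 genes, and the Esam(lo) points nearly coincide. Of all 9196 genes above background, 6546 read lower on the Esam(hi) than on the control Esam(lo) array. Of all genes, 52% have exactly equal values on the Esam(lo) arrays.

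Differences of this size were not spread evenly over signal levels. The median difference, Esam(hi) minus Esam(lo), was -0.81 over the lysosomal genes and -0.32 over all genes above background, and it changed with level: genes near Galc in level had a median of 0 and those near Tfeb -0.54. Each gene was therefore also set beside the 500 other genes nearest to it in mean level. The median of those like-level medians was -0.49, and the lysosomal genes lay beyond them by a median of -0.46, with 36 of 43 below and 7 above (Cln3, Gla, Idua, Man2b1, Neu1, Galns and Tfeb). By this measure 9 of the 43 were at least 2-fold lower, against 4.31% of all genes: Lamp1, Scarb2, Lipa, Npc2, Arsb, Asah1, Ppt1, Atp6v1a and Atp6v1b2. All 9 are among the 18. With quantile normalization 13 of the 18 were called lower, against 6.85% of all genes, and 6 of the 43 had values above 0.

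**Figure D2:**
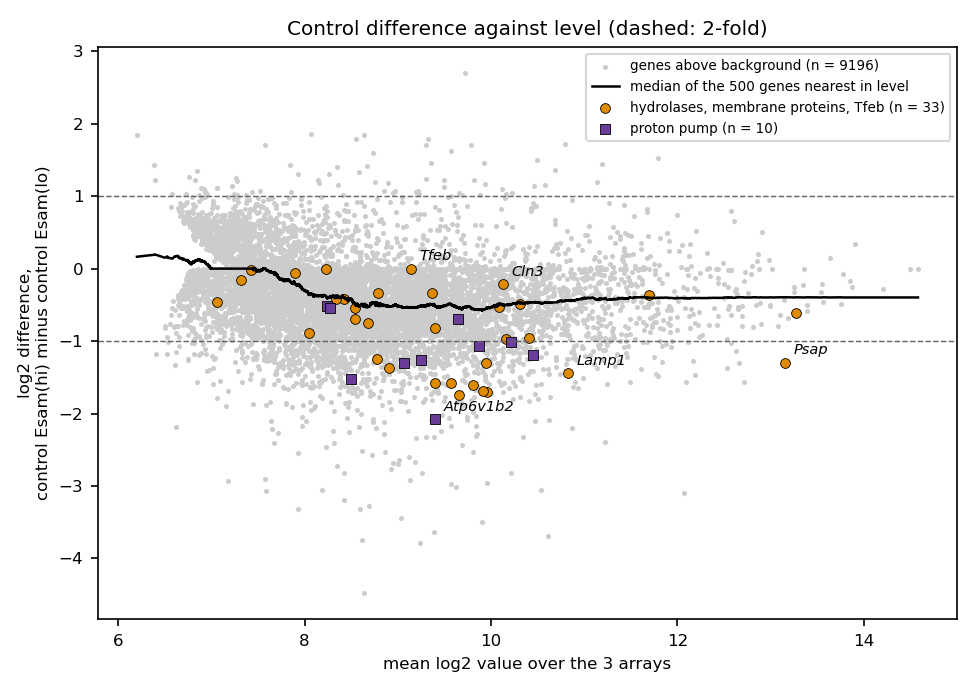
Log2 value of control Esam(hi) less that of control Esam(lo) (y axis), against the mean log2 level over the 3 arrays (x axis); each small point is a gene above background, coloured points are the lysosomal genes, and the line is the median of genes of like level. Most lysosomal genes lie below that line, Atp6v1b2 farthest at -2.07, while Tfeb and Neu1 lie at 0.

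The promoters of the lysosomal genes were searched for the E-box that TFEB binds, as a description of their sequence. RefSeq start sites of GRCm38.p6, with 250 bases before and 50 after each start, were found for 37 of the 44 genes; none was found for Asah1, Atp6v0d2, Atp6v1b2, Atp6v1c1, Atp6v1h, Galns and Npc1. The core CACGTG reads the same on both strands. At least 1 promoter held it in 13 of the 37 genes (35.1%): Arsa, Atp6v0b, Atp6v0d1, Atp6v1a, Cln3, Gaa, Gla, Glb1, Lamp1, Lgmn, Mcoln1, Naglu and Sgsh. The same search found it in 8.09% of all 27025 genes with a promoter and in 12.1% of the 7815 that were above background on at least 1 array. The longer TCACGTGA, which contains the core and also reads the same on both strands, was in 5 of 37 (13.5%), against 1.12% and 2.38%. The other lysosomal genes described further on held CACGTG in 18 of 66 (27.3%) and TCACGTGA in 8 of 66 (12.1%). With a further G before and C after it, it was found in Cln3 alone, 1 of 37 (2.7%), against 0.37% of all genes and 0.819% of those above background.

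Promoter stretches of 100 bases are shown for the 3 genes lower in Esam(hi) that hold the core, and for the 3 genes not lower that hold 2 copies of it. They are written 5′ to 3′ along the gene's strand, from RefSeq, GRCm38.p6, with CACGTG in capitals. Lamp1 (chr8:13159061-13159160, + strand) held 4 copies within the 100 bases before the start; Atp6v0b (chr4:117887330-117887429, - strand), Cln3 (chr7:126583319-126583418, - strand), Mcoln1 (chr8:3500414-3500513, + strand) and Gla (chrX:134601156-134601255, - strand) held 2 each and Atp6v1a (chr16:44139338-44139437, - strand) held 1.
Lamp1: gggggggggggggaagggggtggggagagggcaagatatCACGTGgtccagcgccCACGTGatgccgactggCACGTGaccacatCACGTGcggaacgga
Atp6v0b: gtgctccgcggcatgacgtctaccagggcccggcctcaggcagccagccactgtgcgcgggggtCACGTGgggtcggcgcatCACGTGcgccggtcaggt
Atp6v1a: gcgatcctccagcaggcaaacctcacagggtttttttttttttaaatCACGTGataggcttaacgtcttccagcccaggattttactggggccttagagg
Cln3: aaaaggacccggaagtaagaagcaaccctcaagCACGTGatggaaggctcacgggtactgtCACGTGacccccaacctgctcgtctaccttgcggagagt
Mcoln1: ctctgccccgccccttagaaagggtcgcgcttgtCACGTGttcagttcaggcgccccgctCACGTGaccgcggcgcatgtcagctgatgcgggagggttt
Gla: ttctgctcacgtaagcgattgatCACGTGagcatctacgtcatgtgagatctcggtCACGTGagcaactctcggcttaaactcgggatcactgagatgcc
Of these genes the first 3 passed the 2-fold rule between the control arrays and the last 3 did not. Of the 16 lower genes with a promoter, 3 held the core (18.8%), and of the other 21, 10 did (47.6%). These are matches of letters in a window, with no measurement of binding.

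Among the membrane proteins, Lamp1 and Lamp2 encode the heavily glycosylated proteins that line the lysosomal membrane. Lamp1 read 9.90 for control Esam(hi), 11.35 for control Esam(lo) and 11.22 for labelled RBPJnull cells, and was 2.72-fold lower on the first than on the second. Lamp2 read 9.41, 10.38 and 10.71, a 1.96-fold difference that falls just short of the rule. Scarb2, the receptor that carries glucocerebrosidase to lysosomes, read 8.27, 9.85 and 10.07 and was 2.98-fold lower. The Esam(hi) value was the lowest in these 3 genes, and Lamp1 and Scarb2, but not Lamp2, passed the rule between the control arrays.

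The other membrane proteins differed less. Npc1, which moves cholesterol out of the lysosome, read 9.77, 10.30 and 10.19, a difference of -0.53. Mcoln1, a calcium channel of the lysosomal membrane, read 10.00, 10.49 and 10.45. Cln3, whose loss causes juvenile Batten disease, read 9.99, 10.20 and 10.20. Their control differences were within 0.05 of like-level genes for Npc1 (-0.04 beyond) and Mcoln1 (-0.01), and Cln3 lay above them (0.29).

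The lipase and the sterol carrier had the lowest median difference of the roles (-1.67). Lipa, the acid lipase that frees cholesterol from lipoprotein esters, read 8.70, 10.30 and 10.42, 3.03-fold lower in Esam(hi). Npc2, the soluble sterol carrier that hands cholesterol to Npc1, read 8.54, 10.29 and 10.14, 3.36-fold lower. Npc2 and Npc1, which act in 1 pathway, thus differed by -1.75 and -0.53. Beyond genes of like level, Lipa and Npc2 were lower by a log2 difference of -1.04 and -1.20.

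The sphingolipid group includes degrading enzymes and the activator proteins that present lipids to them. Asah1, acid ceramidase, read 8.80, 10.50 and 10.57 and was 3.25-fold lower in Esam(hi). Psap, precursor of the saposin activators, read 12.34, 13.64 and 13.49 and was 2.46-fold lower. Smpd1, acid sphingomyelinase, read 7.46, 8.35 and 8.34, a 1.85-fold difference. Gm2a, the activator of ganglioside breakdown, read 12.94, 13.54 and 13.35, a 1.52-fold difference. All 4 were lowest on the Esam(hi) array, and for 2 of them the gap passed the rule (median difference -1.09).

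Glycosidases, which remove sugars from glycoproteins, glycolipids and glycosaminoglycans, were divided. Hexa, the alpha subunit of beta-hexosaminidase, read 9.07, 10.38 and 10.38, 2.48-fold lower in Esam(hi), though at -0.99 just short of the rule with quantile normalization. Fuca1, which removes fucose, read 7.99, 9.37 and 9.35, 2.59-fold lower. Gusb, beta-glucuronidase, read 7.94, 9.18 and 9.22, 2.38-fold lower. These were the 3 of 12 glycosidases past the rule, and the median of all 12 was -0.44.

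Of the remaining glycosidases, Glb1, beta-galactosidase, was nearest to the rule with 8.11, 8.81 and 8.70, a 1.63-fold difference. Manba, a beta-mannosidase, read 8.19, 8.72 and 8.72, and Gaa, which degrades glycogen, read 8.17, 8.60 and 8.50. Man2b1, an alpha-mannosidase, read 11.50, 11.86 and 11.72. Gla, alpha-galactosidase A, read 9.12, 9.45 and 9.54, and Idua, alpha-L-iduronidase, 8.57, 8.90 and 8.90. For these genes the Esam(hi) value was the lowest, by less than the rule. Galc, which splits galactosylceramide, read 6.68, below background, 7.14 and 7.36. Naglu, which acts on heparan sulfate, read 7.22, 7.37 and 7.37, close to the background of 7.17 on the first array. Neu1, the lysosomal sialidase, read 8.23 on each array. Beside like-level genes, Gla (0.17), Idua (0.17), Man2b1 (0.04) and Neu1 (0.37) lay above the median, so the glycosidases as a group were lower by only -0.10.

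Sulfatases remove sulfate from lipids and glycosaminoglycans. Arsb, which acts on dermatan and chondroitin sulfate, read 8.46, 10.04 and 10.20 and was 2.99-fold lower in Esam(hi). It is the only one of the 44 genes with more than 1 probe set, and the other one read 8.07, 9.58 and 9.58, a difference of -1.51 beside -1.58. Ids, iduronate sulfatase, read 8.87, 9.68 and 9.66, a 1.76-fold difference. Sgsh, heparan N-sulfatase, read 8.10, 8.52 and 8.39. Galns read 7.86, 7.92 and 7.92, and Arsa, which acts on sulfatide, 7.42, 7.43 and 7.43. The 3 arrays were therefore nearly level for Galns and Arsa, and 1 of 5 sulfatases passed the rule.

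Peptidases and the thioesterase trim proteins and remove fatty acids from them. Ppt1, palmitoyl-protein thioesterase, read 8.80, 10.50 and 10.45 and was 3.23-fold lower in Esam(hi). Lgmn, the asparaginyl endopeptidase that cuts antigens and activates other proteases, read 9.73, 10.69 and 10.81, a 1.95-fold difference. Tpp1, tripeptidyl peptidase, read 8.19, 8.95 and 8.91, a 1.69-fold difference. Over the 26 hydrolases and their helpers together, 9 were lower (34.6%), against 11.6% of all genes. Among their genes of like level the share called lower ran from 2% (Galc) to 18.8% (Ppt1). The median difference of the 26 was -0.73, and -0.26 beyond like-level genes.

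Of the 10 proton pump genes above background, 7 were at least 2-fold lower in Esam(hi) (70%), against 11.6% of all genes. The share called lower among their genes of like level ran from 11.8% (Atp6v1c1) to 19.8% (Atp6v0b). The median difference of the 10 pump genes was -1.13, and -0.62 beyond like-level genes. Beside like-level genes 2 were still 2-fold lower, against 4.31% of all genes. With quantile normalization 3 were called, Atp6v0a1, Atp6v1a and Atp6v1b2, against 6.85% of all genes. In the V1 sector, Atp6v1b2, the B2 subunit that holds part of the ATP-binding site, read 7.97 for Esam(hi), 10.04 for Esam(lo) and 10.19 on the labelled RBPJnull array. It was 4.21-fold lower in Esam(hi) and lay -1.55 beyond genes of like level, farther than any of the other 42. Atp6v1a, the catalytic A subunit, read 7.49, 9.02 and 8.98, 2.87-fold lower. These subunits alternate in the ring that splits ATP, and both are among the 9 genes still 2-fold lower beside like-level genes.

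The remaining V1 genes form the stalks and regulatory parts. Atp6v1d, of the central rotor stalk, read 8.40, 9.67 and 9.68, 2.41-fold lower. Atp6v1c1 read 7.89, 8.41 and 8.41, a difference of -0.51, and Atp6v1h, a regulatory subunit, read 7.89, 8.43 and 8.50, a difference of -0.54. Neither of these passed the rule, so subunits of 1 sector differed by unequal amounts.

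In the V0 sector, Atp6v0a1, a form of the large membrane subunit a, read 8.15, 9.45 and 9.61, 2.46-fold lower in Esam(hi). Atp6v0b, of the proton-carrying ring, read 9.53, 10.55 and 10.57, 2.01-fold lower and only just past the rule. Atp6v0d1, the widely expressed d subunit, read 9.23, 9.92 and 9.80, a 1.61-fold difference. Its sister Atp6v0d2, best known from osteoclasts, was below background throughout. The accessory subunits, which help to assemble and place the pump, were both lower. Atp6ap1 read 9.65, 10.84 and 10.85, 2.29-fold lower, and Atp6ap2, also known as the prorenin receptor, read 9.10, 10.17 and 10.33, 2.10-fold lower.

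**Figure D3:**
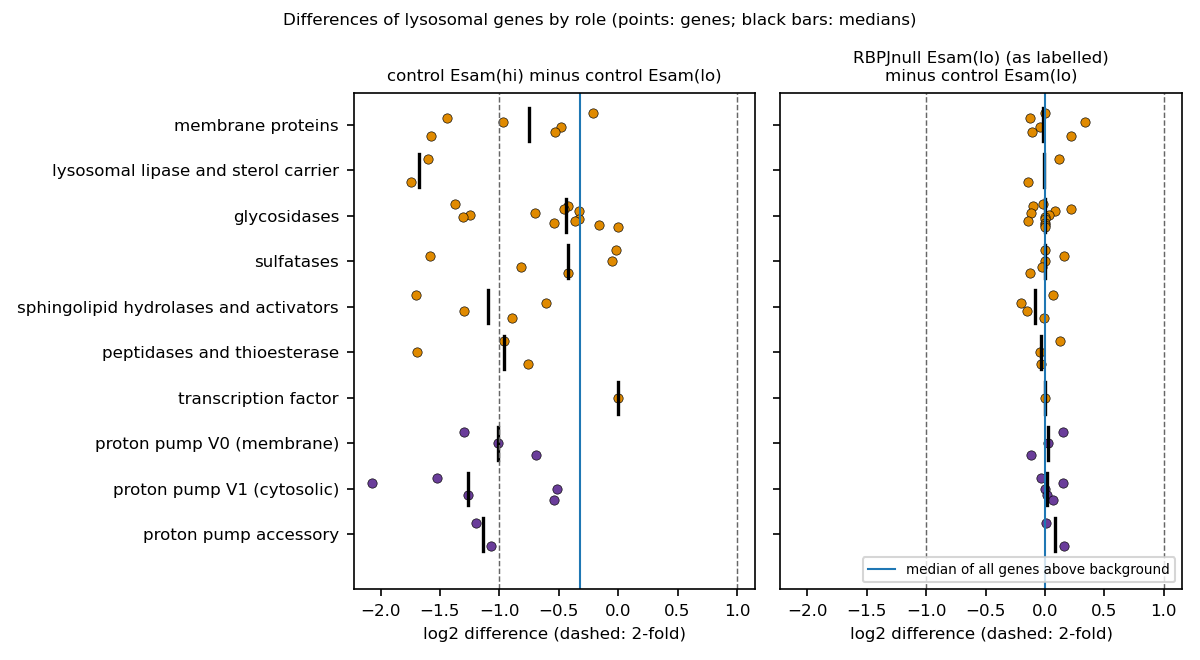
Log2 differences (x axis) of the 43 lysosomal genes above background by role (y axis): control Esam(hi) minus control Esam(lo) on the left and labelled RBPJnull Esam(lo) minus control Esam(lo) on the right; points are genes, black bars the medians by role, dashed lines 2-fold, and the blue line the median of all genes above background. On the left 18 genes lie at or beyond 2-fold lower; on the right none does and the range is -0.20 to 0.34.

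Tfeb, the transcription factor in the set, read 9.15 on each of the 3 arrays. Exact ties are common in these values, with at least 1 in 57.1% of all genes, so equal values are no evidence of equal expression. Genes of Tfeb's level had a median difference of -0.54, and Tfeb thus lay 0.54 above them, the highest of the 43. With each array set to 1 distribution (quantile normalization) its difference was 0.33. Its relative Tfe3 read 9.61 and 9.59 on the Esam(lo) arrays and differed by -0.60 between the control arrays, only -0.09 beyond genes of like level. Mitf, another member of that family, read 6.82, below background, 7.56 and 7.60. Both Tfe3 and Mitf are named after their values were seen.

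The comparison of the Esam(lo) arrays asks what deletion of Rbpj does in Esam(lo) cells. No lysosomal gene differed 2-fold, 0 of 43 in either direction, where 0.0749% of 9348 genes above background were higher on the labelled RBPJnull array and 0.193% lower. That background corresponds to 7 and 18 genes, so a count of 0 among 43 is not a result about these genes. Even at 1.5-fold none of the 43 was apart. Differences ran from -0.20 for Gm2a to 0.34 for Lamp2 with a median of 0. Of the 43, 16 were above 0, 17 below and 10 tied. Over all 9348 genes the median was also 0, with 2736 above, 2859 below and 3753 tied, so closeness of these arrays is not particular to lysosomal genes. Of the 43, Lamp2, Scarb2 (0.22) and Galc (0.22) lay beyond 0.2 in size, all higher on the labelled array. Of the 10 pump genes, 7 were above 0, 2 below and 1 tied, with the largest at 0.16 (Atp6ap2).

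Set against the control Esam(hi) array, the labelled RBPJnull array had 20 of 43 lysosomal genes at least 2-fold higher and 0 lower, where 12.9% of 9312 genes were higher and 1.18% lower. This comparison shares an array with each of the other comparisons, so it adds no independent evidence and the values are given side by side. The 18 genes called lower in the control comparison were all among the 20; Lamp2 (2.48-fold) and Lgmn (2.12-fold) were added. Relative to Esam(hi), Atp6v1b2 was 4.67-fold higher on the labelled array and 4.21-fold higher in control Esam(lo) cells. For Scarb2 the folds were 3.47 and 2.98, for Asah1 3.41 and 3.25, and for Lipa 3.30 and 3.03. In the opposite order, Npc2 had 3.04 and 3.36, Lamp1 2.49 and 2.72, and Psap 2.21 and 2.46. The median over the 43 genes was 0.79, against 0.31 for all genes. Beside genes of like level it was 0.50, with 8 of 43 at least 2-fold higher against 5.17% of all genes.

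Other genes of the lysosome were listed separately and read in the comparison of the control arrays. Of 93 listed, 80 were measured and 62 were above background; 14 were called lower in Esam(hi) (22.6%, against 11.6% of all genes) and 0 higher, with a median of -0.68, or -0.25 beyond like-level genes. Beside like-level genes 7 of the 62 were at least 2-fold lower, against 4.31% of all genes, and 1 was higher, against 1.97%. With quantile normalization Atp6v0e, Rnasek, Plbd2, Acp2, Slc36a1 and Laptm4a lost the call. Other hydrolases and activators were lower in 5 of 18 cases. Smpdl3a, a phosphodiesterase related to acid sphingomyelinase, read 7.56, 10.54 and 10.63 and was 7.87-fold lower. Naaa, which cleaves fatty acid ethanolamides, read 8.78, 11.11 and 11.13 and was 5.03-fold lower. Smpdl3b was at least 2.43-fold lower, Plbd2 2.20-fold and Acp2, the lysosomal acid phosphatase, 2.02-fold. Smpdl3a and Naaa were farther apart than any of the 43 genes described above.

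Other membrane proteins and sorting receptors were lower in 6 of 17 cases. Tpcn1, a cation channel of endosomes and lysosomes, read 7.34, 9.04 and 9.03 and was 3.24-fold lower. Ostm1, partner of the lysosomal chloride transporter, read 7.57, 9.12 and 9.19 and was 2.93-fold lower. Cd68, a glycoprotein of macrophage lysosomes, was 2.42-fold lower, the amino acid transporter Slc36a1 2.33-fold, the cystine exporter Ctns at least 2.09-fold and Laptm4a 2.08-fold. Of the rest of the pump 2 of 12 were lower (16.7%, near the 11.6% of all genes), and 0 were with quantile normalization or beside like-level genes: Atp6v0e (9.47, 10.64 and 10.59, 2.25-fold) and Rnasek (8.96, 9.97 and 9.89, 2.02-fold). Tcirg1, the a3 form of subunit a, was level at 11.70, 11.71 and 11.70 and is named after its values were seen. Among regulators 1 of 15 was lower (6.67%, under the 11.6% of all genes), so this count is not a result about regulators. It was Lamtor1, part of the complex that tethers nutrient sensing to lysosomes. Lamtor1 read 7.02, below background, 8.33 and 7.80, at least 2.24-fold lower. Between the Esam(lo) arrays 0 of the 63 other genes above background were apart, where 0.0749% of all genes were higher and 0.193% lower, so this count says nothing particular about them.

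**Figure D4:**
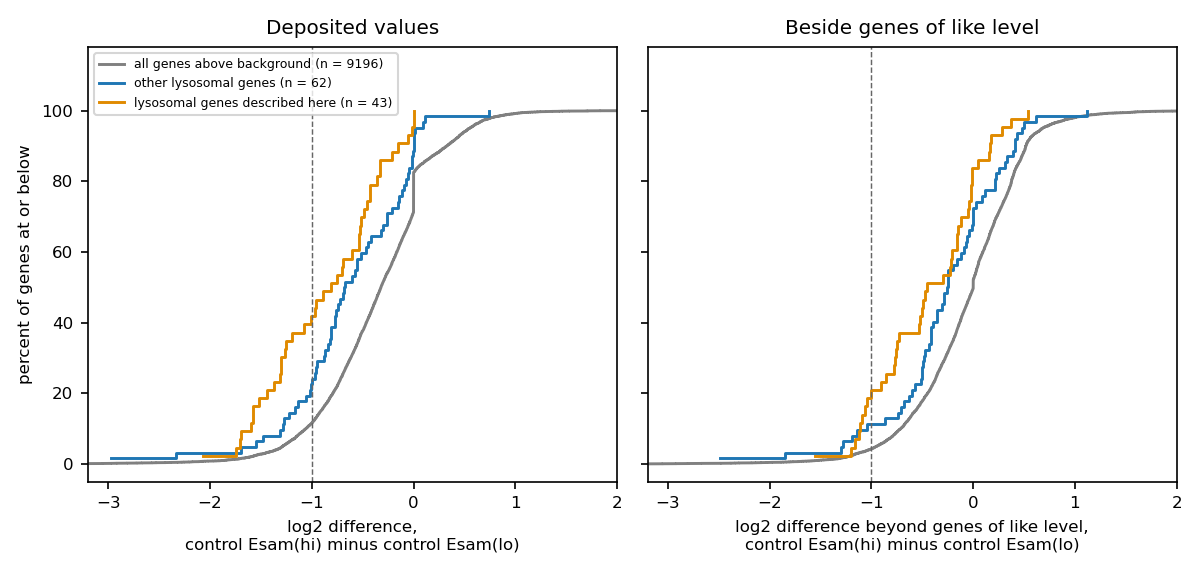
Cumulative percent of genes (y axis) at or below a log2 difference between control Esam(hi) and control Esam(lo) (x axis; negative is lower in Esam(hi)), on deposited values (left) and beside genes of like level (right), for the 43 lysosomal genes, 62 other lysosomal genes and all 9196 genes above background; the dashed line is 2-fold lower. The curve of the 43 genes lies left of that of all genes in both panels, with medians of -0.81 and -0.32 on the left and -0.46 and 0 on the right.

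Some markers of other cell types moved with these genes. Of 21 monocyte and macrophage markers measured, 11 were above background on the control Esam(hi) array and 19 on each Esam(lo) array; their mean log2 value was 7.60, 9.46 and 9.43. Of 18 above background in the control comparison, 15 were called lower in Esam(hi) and 0 higher (median -2.13). Over all genes above background 11.6% were lower. Several of the 15, such as Ccr2 and F13a1, were below background on the Esam(hi) array and were counted through the Esam(lo) array alone. Cx3cr1, also among the 15, carries the reporter by which the cells were sorted, so its direction follows the sort. Mertk and Ms4a3 were above background on no array. Lyz1 read 7.42, 9.75 and 10.73, Lyz2, the macrophage lysozyme, 9.97, 13.06 and 13.20, and Csf1r, a macrophage growth factor receptor, 8.62, 11.67 and 11.31. Cd68 is in this list as well as in that of lysosomal membrane proteins. Neutrophil markers were lower in 6 of 9 cases, such as S100a8 at 8.35, 10.53 and 10.65, with list means of 8.95, 9.69 and 9.86. Beside genes of like level, 2 of these 9 were at least 2-fold lower and 1 was higher, against 4.31% and 1.97% of all genes. Mpo (9.28, 8.31 and 8.74) and Elane (8.95, 8.60 and 8.74) of the same list had their highest values on the Esam(hi) array, short of 2-fold. All 13 classical DC markers were above background on every array, 0 were 2-fold apart, and their means were 11.80, 11.89 and 11.90. Beside genes of like level in the control comparison, 11 of the 13 lay above and 2 below (median 0.28). By that measure 1 of the 13 was at least 2-fold higher in Esam(hi), against 1.97% of all genes above background. The part of these cell type markers in the lysosomal differences was not tested.

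Markers of further cell types were above background in part. Of 11 red pulp macrophage markers, Slc40a1, Cd163, Cd5l, Marco and Siglec1 were above background nowhere, and 2 of the 6 others were lower on the Esam(hi) array (list means 6.58, 6.91 and 6.88). Beside genes of like level 1 of these 6 was at least 2-fold lower. The share called lower over all genes above background, 11.6%, applies to every count in this paragraph, and it was 4.31% beside like-level genes. All but 1 of 6 B cell markers and all 3 erythroid markers were below background on every array. The same held for 5 of 7 natural killer cell markers, 2 of 5 T cell markers, 1 of 5 plasmacytoid DC markers and 3 of 7 CD8+ DC markers. Of the 4 CD8+ DC markers above background, Clec9a was lower in Esam(hi) by at least 4.10-fold, and the others were not apart, with differences of 0.13 for Batf3, -0.03 for Cadm1 and -0.14 for Tlr3. Both natural killer markers above background, Klrk1 and Klrd1, were lower in Esam(hi), as was 1 of the 4 plasmacytoid DC markers, Tcf4 (8.34, 9.55 and 9.62, 2.32-fold). Klrk1, like Clec9a, was below background on the Esam(hi) array and was counted through the Esam(lo) array alone. Beside genes of like level Klrk1 (-1.91) stayed past 2-fold, while Klrd1 (-0.64) and Tcf4 (-0.68) fell short. By that measure 1 plasmacytoid DC marker was at least 2-fold higher in Esam(hi), against 1.97% of all genes.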

How the data were processed

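The authors deposited a log2 expression value for each probe set on each array, made with RMA in Affymetrix Expression Console per the submitters' processing notes. The sources used here give neither versions nor which arrays were normalized together; the quartiles of the 3 columns differ, so scale differences remain. Of 35556 probe sets, 21789 name 1 gene, 1621 several and 12146 none; only the first kind was used. Entrez numbers were found in RefSeq's GRCm38.p6 gene table for 21698 and not for 91, and no symbol changed. A gene with several probe sets (999 of 19938) took its values from the probe set of highest mean.

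Differences, counts by the 2-fold rule, and medians of the 500 genes of like level were computed in Python 3.11.15 with numpy 2.4.6 and pandas 2.3.3, and tested on simulated data. A fold is "at least" where the dimmer array was at or below background and was replaced by it. The promoter search used the RefSeq sequences as given. The members and lists were chosen with earlier results of these data known. Named were all members, of each other pathway list the 6 farthest apart past 2-fold, label checks, and of each marker list at most 3 above background in list order; Tlr3, Mpo, Elane and genes given as below background were named after their values were seen. Alternatives were other filters, normalizations, thresholds, probe set summaries and like-level widths.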

Additional observations from a re-analysis of the deposited data

How the results depend on the processing

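Between the control arrays, the median difference of the lysosomal genes (-0.81) stayed below 0 under every alternative run. It was -0.96 with a stricter filter, which asked the brighter array of the pair to lie above its own 75th percentile. The median was -0.93 with median centring, -0.54 with quantile normalization, and -0.46, -0.46 and -0.44 with the like-level trend removed over 500, 200 and 1000 genes. The count of 18 lower genes became 9 with the trend removed at each of these widths, 5 at 3-fold, 26 at 1.5-fold, 13 with quantile normalization and 21 with centring. Under those settings the counts over all genes, 75 higher and 1066 lower in the main setting, were 181 and 396 (500 genes), 12 and 196, 405 and 2944, 150 and 651, and 47 and 1463. Quantile normalization moved the median of all genes from -0.32 to -0.11 and centring moved it to -0.40. Hexa, Atp6v0b, Atp6v1d, Atp6ap1 and Atp6ap2 were not 2-fold lower with quantile normalization, and Lamp2, Smpd1 and Lgmn were with centring. Lamtor1 was not with the mean of its probe sets.

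For the labelled RBPJnull array minus the control Esam(hi) array, the median of 0.79 was 1.06 with that stricter filter, 0.90 with centring, 0.96 with background at the 99th percentile, and 0.50, 0.51 and 0.52 with the trend removed over 500, 200 and 1000 genes. The count of 20 became 12 with quantile normalization, 8, 7 and 8 with the trend removed, and 7 at 3-fold. For the Esam(lo) arrays the count was 0 in both directions under every alternative run. The causes of these changes were not tested. No paired analysis was possible because each group has 1 array, and for the same reason no replicate could be left out. The background level limits what can be read for Galc, Naglu, Arsa and Atp6v0d2.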

Other observations

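Among the 12 other pump genes above background, Atp6v1g2, a form of the peripheral stalk subunit best known from neurons, was the one with a higher value on the control Esam(hi) array. It read 8.67 there, 7.93 for control Esam(lo) and 7.81 for labelled RBPJnull cells, a control difference of 0.74, short of 2-fold on the deposited values and 1.12 beyond genes of like level. It was named after its values were seen.

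Between the Esam(lo) arrays, where no lysosomal gene was 2-fold apart, the differences of the other lysosomal genes farthest from 0 were also read after their values were seen. Lamtor1 was lower on the labelled RBPJnull array (-0.53), as were the tartrate-resistant acid phosphatase Acp5 (-0.35), the nucleoside transporter Slc29a3 (-0.35) and Smpdl3b (-0.34). Cd63, a tetraspanin of late endosomes, was higher (0.37), at 7.20, 7.21 and 7.59 on the 3 arrays.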
